A study of Mus musculus with 6 samples.

Results

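The CXC and CX3C chemokine ligand genes Cxcl1, Cxcl2, Cxcl3, Cxcl5, Cxcl12, Cxcl14, Cxcl16 and Cx3cl1 were followed through 6 RNA-seq libraries of the mouse thymoma cell line 427.1.86 (427 cells). They were picked by name, and each of the 8 genes had exactly 1 row among the 25001 loci of the files. Expression was given as FPKM, the number of sequenced fragments scaled by the length of the transcript and the depth of the library. An FPKM of 1 or more was reached by 6 of the 8 genes in at least 1 library, while Cxcl12 and Cxcl14 stayed below 1 in all 6.

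Chemokines are small secreted proteins that guide the movement of white blood cells through receptors with a G protein behind them. Cxcl1, Cxcl2, Cxcl3 and Cxcl5 carry the amino acids ELR before the first cysteines, bind the receptor CXCR2 and attract neutrophils, and their genes lie side by side in a cluster. Their transcription is induced within hours by NF-kappaB, and their mRNAs are unstable through AU-rich elements. Cxcl16 and Cx3cl1 (fractalkine) are unusual in being made as membrane proteins with a mucin-like stalk, from which the proteases ADAM10 and ADAM17 release the chemokine, and Cxcl12 and Cxcl14 are ligands usually present without an inflammatory stimulus.

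Each condition had 1 library. The control 427 cells were wild type for SPPL2b, a protease that cuts within the membrane, carried the empty pSUPER vector and were starved of serum for 2 h. They then had 2 h of DMSO or of 1 µM PMA, a phorbol ester that activates protein kinase C and induces shedding. SPPL2b knockdown cells (SP2bKD) received DMSO or PMA in the same way. The last pair of libraries came from SP2bKD cells transfected with a GFP vector alone, or with GFP and Flag-tagged EICD, the intracellular domain of the membrane protease epithin/PRSS14, and sorted for GFP 24 h after transfection. The labels name an siRNA for the knockdown, whereas the methods of the study describe single-cell clones with a stable shRNA, and the labels do not say which clone was sequenced. The knockdown was not visible in Sppl2b itself, which was at 9.90 (DMSO) and 6.86 (PMA) FPKM in 427 cells and at 13.4 (DMSO), 9.37 (PMA), 11.4 (GFP) and 13.2 (GFP plus EICD) in the libraries labelled SPPL2b knockdown. St14, which encodes epithin/PRSS14, was at 69.6 with GFP and at 615 with GFP plus EICD, and reads of the transfected construct cannot be told apart from those of the gene.

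The libraries held an estimated 26000000 to 30200000 fragments, with 10555 to 10873 loci at FPKM 1 or above in each. Markers of epithelium were all present (7 of 7 at FPKM 1 or more, with a summed FPKM of 6328 to 15032). Of 7 thymocyte and T cell genes only Rag1 reached 1, Cd3e, Cd3d and Cd4 were at 0 in every library, and the sum was 1.96 to 3.68, so that the defining T cell genes were absent. The summed FPKM was 7.04 to 12.2 for macrophage and myeloid genes (3 of 6 reached FPKM 1, Csf1r at 2.37 to 7.35, Cd14 at 2.56 to 5.78 and Cd68 at 1.25 to 2.58, with Adgre1 at 0), 1.15 to 8.46 for neutrophil genes, 0.439 to 2.17 for fibroblast genes and 0.0593 to 0.431 for endothelial genes. The neutrophil sum was highest in 427 cells with PMA (3.04 with DMSO), and its part in the results was not tested. In bulk RNA, fewer cells that express a gene and less RNA per cell cannot be told apart.

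With no replicates there is no spread between samples and no p-value, and every difference below compares 2 libraries. Log2 fold changes were computed with 0.01 added to the FPKM of both libraries, which understates large changes of low genes. For EICD, 0.01 was added to the EICD library alone, which slightly overstates increases of low genes. A gene passed the minimum, and could be counted as past 2-fold, only where either library of the pair had an FPKM of 1 or more. For EICD, the GFP library also had to reach an FPKM of 0.01, so loci listed at 0 there are not among the loci tested. In the levels below, "without PMA" stands for the DMSO library.

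The promoters of Cxcl1, Cxcl2 and Cxcl3 are shown first, because these neighbouring genes share a sequence that few other promoters hold. RefSeq promoters, from 250 bases before to 50 bases after the start, were found for 6 of the 8 genes (Cxcl1, Cxcl2, Cxcl3, Cxcl12, Cxcl14 and Cx3cl1). The stretches below run on the plus strand from 120 to 29 bases before the RefSeq start on GRCm38.p6, at chr5:90891125-90891216 for Cxcl1, chr5:90903779-90903870 for Cxcl2 and chr5:90785981-90786072 for Cxcl3. Capitals mark matches to an NF-kappaB sequence, GGGAATTTC, and to its looser form GGGNNTTTC, on either strand. Other NF-kappaB sequences were not searched for.
Cxcl1: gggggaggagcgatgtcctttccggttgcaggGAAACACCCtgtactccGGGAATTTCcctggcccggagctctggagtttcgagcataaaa
Cxcl2: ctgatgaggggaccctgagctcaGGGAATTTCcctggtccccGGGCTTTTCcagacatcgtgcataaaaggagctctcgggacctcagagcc
Cxcl3: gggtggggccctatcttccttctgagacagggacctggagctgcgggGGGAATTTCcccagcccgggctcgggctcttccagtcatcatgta
GGGAATTTC began 71, 97 and 73 bases before the RefSeq start in Cxcl1, Cxcl2 and Cxcl3, in the same orientation in each. The RefSeq start of Cxcl2, at 90903899, lies after its GENCODE start at 90903871, so the Cxcl2 distances here depend on the start used. GGGAATTTC was present on either strand in 0.259% of 32851 mouse promoters of this length, and the looser form in 4.36%. Cxcl1 had a further match to the looser form on the other strand, 88 bases before the start, and Cxcl2 a further match on the same strand at 78 bases. Neither form was found in the windows of Cxcl12, Cxcl14 and Cx3cl1. The TATA-like run ATAAAAG, chosen after the sequences had been read, lay 34, 57 and 29 bases before the start in Cxcl1, Cxcl2 and Cxcl3 and is in 5.42% of promoters. TATAAA was found in Cxcl3, overlapping that run, and in Cx3cl1 (13.6% of promoters), and GGGCGG in Cxcl2, Cxcl12, Cxcl14 and Cx3cl1 (35.7%). TGANTCA, the AP-1 motif, and TTGCNNAA, a C/EBP motif, were not in any of the 6 windows (7.81% and 10.8% of promoters). Over the whole windows the promoters of Cxcl1 and Cxcl2 were 74.1% identical, those of Cxcl2 and Cxcl3 72.5% and those of Cxcl1 and Cxcl3 68.4%. A match describes letters in a window and was not tested for binding.

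**Figure D1:**
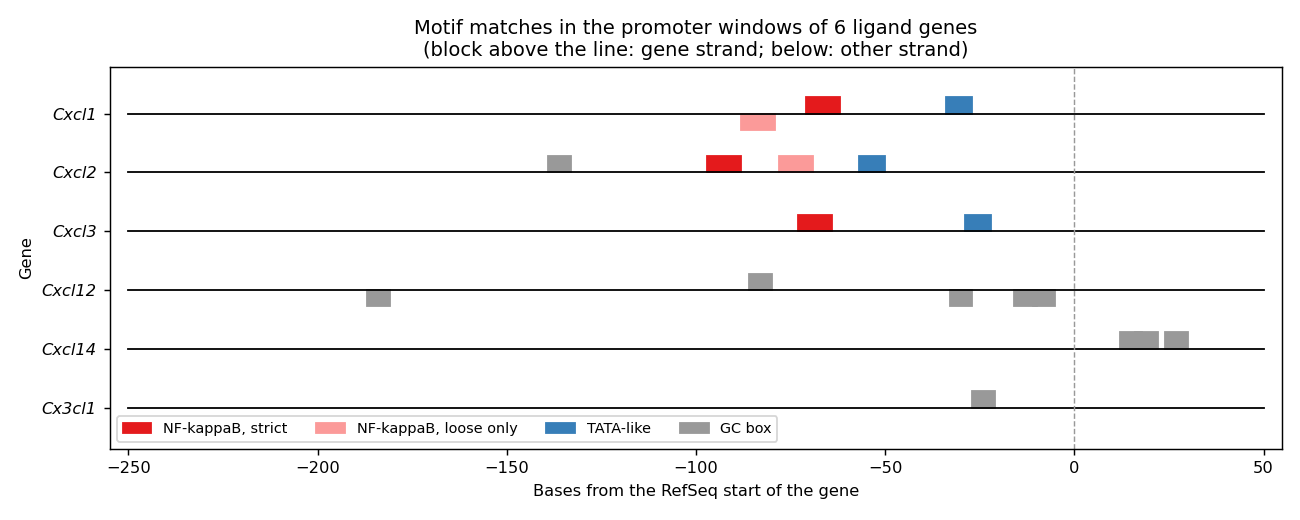
Motif matches in the RefSeq promoter windows of 6 ligand genes, by distance in bases from the start; blocks above a line are on the strand of the gene and blocks below on the other. The strict NF-kappaB motif (GGGAATTTC) lies 71, 97 and 73 bases before the RefSeq start in Cxcl1, Cxcl2 and Cxcl3 and is not in the other 3 windows.

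Cxcl1 (ENSMUSG00000029380, chromosome 5, 90891184 to 90893115 on GRCm38, plus strand, 4 exons), a neutrophil attractant also called KC, had the highest FPKM of the 8 genes in 4 of the 6 libraries. Its FPKM was 28.1 without and 638 with PMA in 427 cells, 9.65 without and 168 with PMA in SP2bKD cells, 175 with GFP and 504 with GFP plus EICD. Both DMSO libraries were thus lowest, and the GFP library lay at the level of SP2bKD cells with PMA.

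Cxcl2 (ENSMUSG00000058427, chromosome 5, 90903871 to 90905938, plus strand, 3 exons), also called MIP-2, is the closest neighbour of Cxcl1 in the cluster. Its FPKM was 0.134 without and 48.2 with PMA in 427 cells, 0.0450 without and 3.96 with PMA in SP2bKD cells, 1.24 with GFP and 10.8 with GFP plus EICD. It had the widest range of the 8 genes, from an estimated 2.0 fragments in SP2bKD cells with DMSO to 2420 in 427 cells with PMA. These fragments rest on its longest coding transcript, and the shorter one of 1109 bases would give 1.10 and 1320.

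Cxcl3 (ENSMUSG00000029379, chromosome 5, 90786103 to 90789600, plus strand, 4 exons), a further CXCR2 ligand, was low throughout. Its FPKM was 0.236 without and 4.64 with PMA in 427 cells, 0.0484 without and 2.98 with PMA in SP2bKD cells, 0.0521 with GFP and 3.71 with GFP plus EICD. Only the PMA libraries and the GFP plus EICD library passed 1, and SP2bKD cells with DMSO and the GFP library held an estimated 1.06 and 1.11 fragments of it.

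Cxcl5 (ENSMUSG00000029371, chromosome 5, 90757614 to 90761624, plus strand, 4 exons), known as LIX in mouse and made chiefly by epithelial cells, followed Cxcl1 in level among Cxcl1, Cxcl2, Cxcl3 and Cxcl5. Its FPKM was 21.8 without and 195 with PMA in 427 cells, 8.98 without and 88.3 with PMA in SP2bKD cells, 40.9 with GFP and 101 with GFP plus EICD. The order of the 6 libraries was the same as for Cxcl2. The assembled locus begins 1746 bases before the GENCODE gene, so its FPKM rests on a longer model than the annotated one.

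Cxcl16 (ENSMUSG00000018920, chromosome 11, 70453983 to 70459984, minus strand, 5 exons), the membrane-bound ligand of CXCR6, varied least among the 6 expressed genes. Its FPKM was 42.5 without and 147 with PMA in 427 cells, 24.5 without and 104 with PMA in SP2bKD cells, 34.6 with GFP and 60.2 with GFP plus EICD. The highest library was 6.00-fold above the lowest. The locus shares 552 bases with Zmynd15 on the opposite strand, and because the library kit does not mark strand, reads of that stretch cannot be told apart.

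Cx3cl1 (ENSMUSG00000031778, chromosome 8, 94772009 to 94782423, plus strand, 3 exons), the only CX3C ligand, had an FPKM of 3.39 without and 11.6 with PMA in 427 cells, 3.49 without and 16.8 with PMA in SP2bKD cells, 2.33 with GFP and 5.86 with GFP plus EICD. It was the only one of the 6 expressed genes whose highest library was SP2bKD cells with PMA and whose lowest was the GFP library.

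Cxcl12 (ENSMUSG00000061353, chromosome 6, 117168535 to 117181367, plus strand, 4 exons), the ligand of CXCR4, had an FPKM of 0.314 without and 0.154 with PMA in 427 cells, 0.00702 in the DMSO library of SP2bKD cells and 0.0124 with GFP plus EICD, and was listed at 0 in SP2bKD cells after PMA and in the GFP library. The estimated fragments were 48.3 and 25.2 in the 2 libraries of 427 cells and at most 1.80 in the others, so that the 427 cells were on the higher side in both treatments at a level below FPKM 1. Cxcl14 (ENSMUSG00000021508, chromosome 13, 56288647 to 56296551, minus strand, 4 exons), a chemokine of epithelia, was at 0.0205, 0.0194, 0, 0, 0.0216 and 0.0197 in the same order of libraries, about 1 fragment or none in each. No fold change was computed for either gene.

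**Figure D2:**
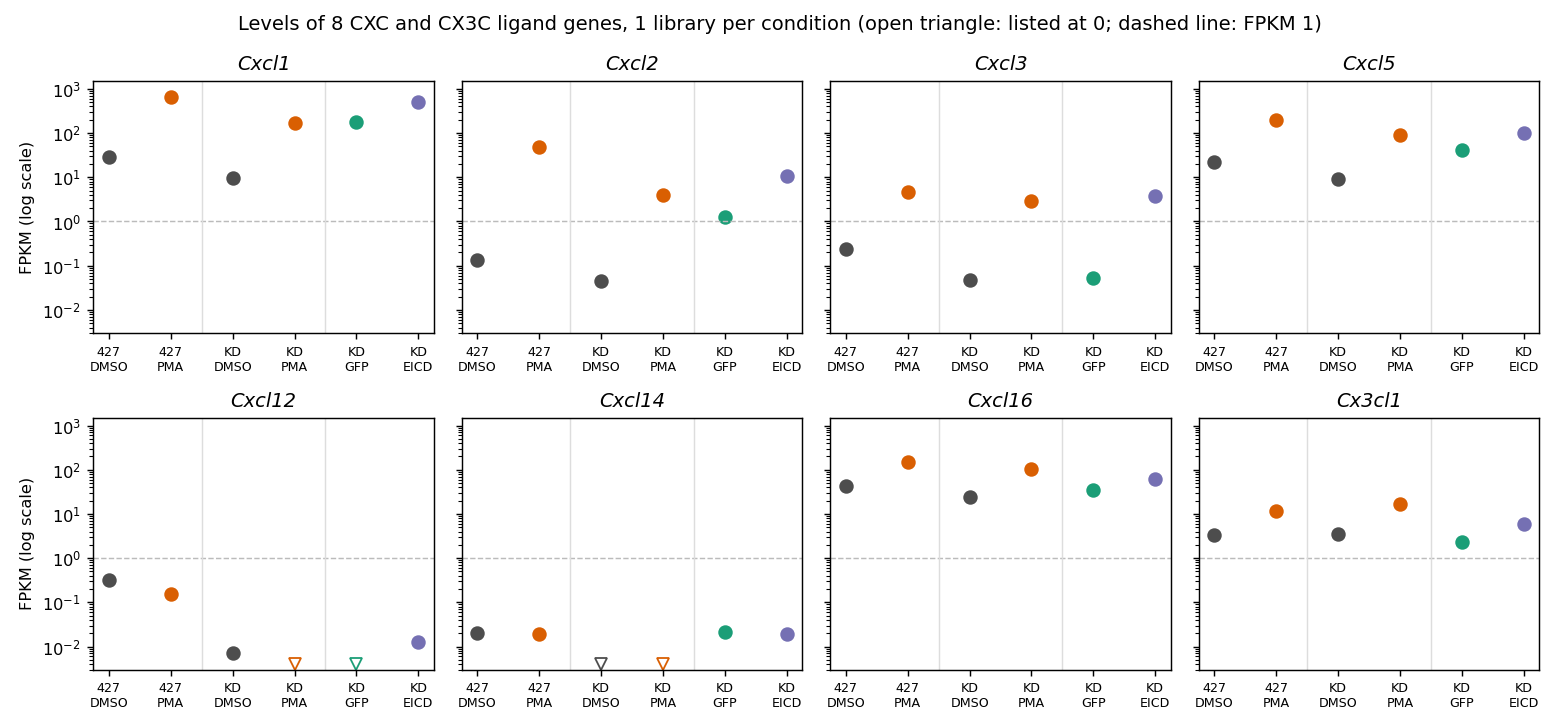
FPKM of the 8 ligand genes on a log axis in the 6 libraries (KD stands for SP2bKD, and EICD for GFP plus EICD), 1 point per library, with an open triangle where a gene is listed at 0. The PMA libraries lie above the DMSO library of their line for the 6 expressed genes, and Cxcl12 and Cxcl14 lie below the dashed line at 1 everywhere.

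The comparison of PMA with DMSO asked how these genes stand 2 h after shedding is induced. Of the 8 genes, 6 passed the minimum in each line, and these 6 were more than 2-fold higher with PMA in both 427 and SP2bKD cells. Cxcl2 and Cxcl3 passed through their PMA library alone, so that they could only differ upwards, and Cxcl1, Cxcl5, Cxcl16 and Cx3cl1 were above 1 in the DMSO libraries too. Among all loci tested, 3.91% of 10643 were more than 2-fold higher and 4.67% lower in 427 cells, and 3.51% of 10624 higher and 5.69% lower in SP2bKD cells. The median log2 fold change of the 6 genes was 3.70 for 427 and 3.71 for SP2bKD cells, beside -0.12 and -0.15 over all loci tested.

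Cxcl2 had a log2 fold change of 8.39 for 427 and 6.18 for SP2bKD cells, ranks 4 and 10 from the top of all loci. Since the DMSO libraries held few fragments of it, counting error alone allows folds from 173 to 1030 for 427 and from 24.1 to 733 for SP2bKD cells (exact 95% intervals on estimated fragments). With the shorter coding transcript of Cxcl2, an alternative added after seeing the data, these become 141 to 2010 and 17.0 to 3850. Cxcl3 had a log2 fold change of 4.24 for 427 and 5.68 for SP2bKD cells, with counting intervals of the fold from 8.91 to 67.2 and from 11.4 to 2620. Both genes lay far above their DMSO levels, but the size of the fold was poorly fixed. With 1 added to both libraries, Cxcl2 was at 5.44 for 427 and 2.25 for SP2bKD cells and Cxcl3 at 2.19 and 1.92, so that Cxcl1 (3.99) and Cxcl5 (3.16) then led in SP2bKD cells. Cxcl1 had log2 fold changes of 4.51 and 4.12 in the 2 lines, ranks 19 and 20, from well-covered libraries. For Cxcl5 they were 3.16 and 3.29, ranks 49 and 37.

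The membrane-bound ligands were above FPKM 1 in both treatments. For Cxcl16 the log2 fold change with PMA was 1.79 for 427 and 2.09 for SP2bKD cells, and for Cx3cl1 it was 1.77 and 2.26. They ranked from 80 to 154 among all loci, and Cxcl1, Cxcl2, Cxcl3 and Cxcl5 from 4 to 49. With 1 added, Cxcl16 (2.05) and Cx3cl1 (1.99) lay above Cxcl3 in SP2bKD cells, so that the order of these groups depends on the amount added for the low genes.

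**Figure D3:**
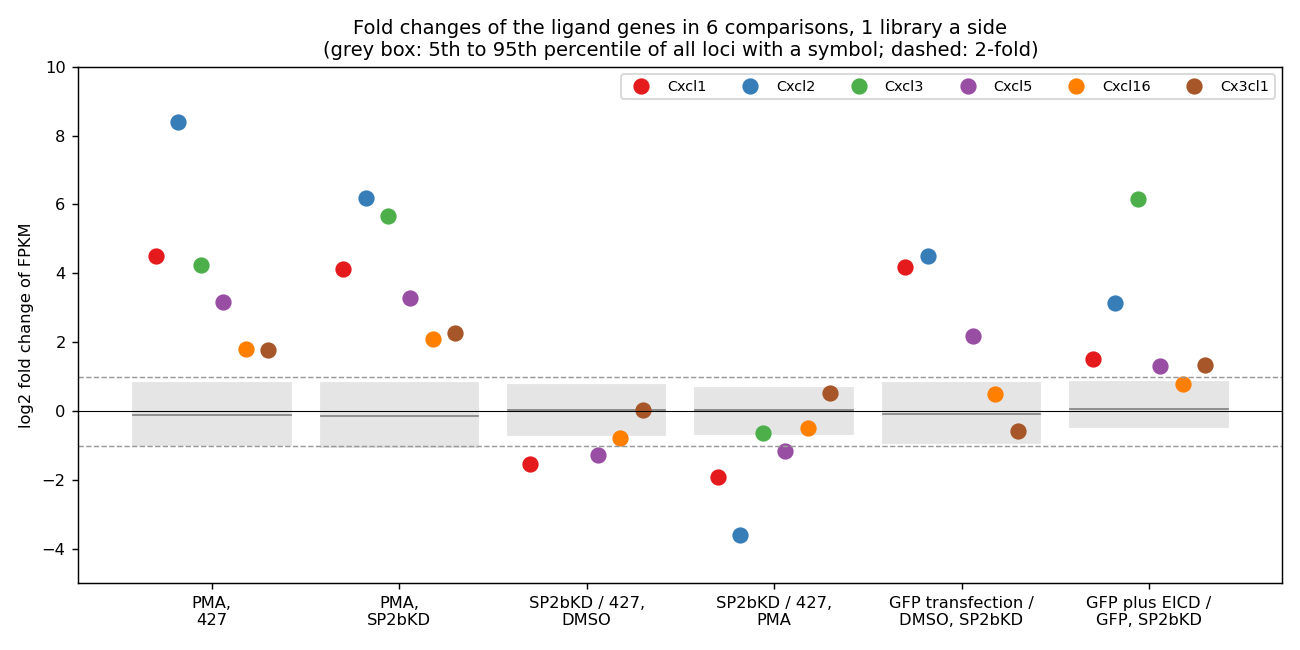
Log2 fold changes of FPKM for the 6 expressed ligand genes in 6 comparisons of 1 library with 1, shown where a gene passed the minimum of FPKM 1; grey boxes span the 5th to 95th percentile of all loci with a symbol, and dashed lines mark 2-fold. All points with PMA lie above 2-fold, and the points between lines lie at or below 0.54. With equal FPKM sums the line comparisons of all loci move up by 0.97 and 1.25.

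The PMA effects of both lines were then set side by side, since the knockdown was made to impair the formation of EICD. The difference of the log2 fold changes, 427 minus SP2bKD, was 0.38 for Cxcl1, -0.13 for Cxcl5, -0.30 for Cxcl16 and -0.49 for Cx3cl1. These lie inside the range from -0.50 to 0.60 that holds the middle 90% of 10845 loci. Cxcl2 stood outside with a difference of 2.21, which became 3.19 with 1 added to every FPKM. Its DMSO libraries held few fragments. The counting intervals of its log2 fold changes overlap, 7.4 to 10.0 for 427 and 4.6 to 9.5 for SP2bKD cells. With 1 added, the value mostly reflects its levels with PMA (48.2 and 3.96), because the DMSO levels were 0.134 and 0.0450. Cxcl3 stood outside on the other side with -1.44, but with 1 added the difference turned to 0.27, so no direction is given for it. None of these differences has a test.

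**Figure D4:**
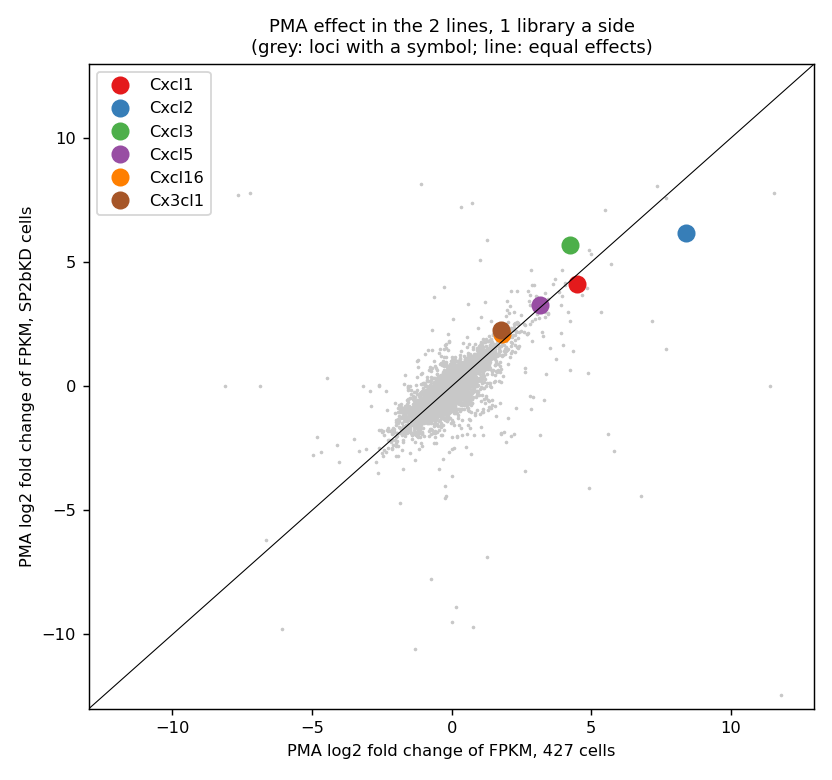
PMA log2 fold change in SP2bKD cells against that in 427 cells, 1 library a side, for loci with a symbol (grey) and the 6 expressed ligand genes (colours); the line marks equal effects. Cxcl1, Cxcl5, Cxcl16 and Cx3cl1 lie near the line, Cxcl2 lies below it (427 minus SP2bKD 2.21) and Cxcl3 above it (-1.44), a side that turns to 0.27 with 1 added to every FPKM. The Cxcl2 difference rests on few fragments with DMSO.

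The lines were also compared directly within a treatment, in contrasts that use the same 4 libraries. With DMSO, 4 of the 8 genes passed the minimum, of which 2 were more than 2-fold lower in SP2bKD cells and 0 higher (2.76% and 3.11% of 10706 loci). Cxcl1 had a log2 ratio of SP2bKD to 427 cells of -1.54, Cxcl5 of -1.28, Cxcl16 of -0.79 and Cx3cl1 of 0.04. With PMA, 6 genes passed, with 3 more than 2-fold lower and 0 higher (2.75% and 2.19% of 10518 loci). Here the log2 ratio was -3.60 for Cxcl2, -1.92 for Cxcl1, -1.15 for Cxcl5, -0.64 for Cxcl3, -0.50 for Cxcl16 and 0.54 for Cx3cl1. In FPKM as deposited Cxcl1, Cxcl5 and Cxcl16 were thus on the lower side in SP2bKD cells in either treatment, but with equal FPKM sums Cxcl16 changed side in both and Cxcl5 and Cxcl3 with PMA. Cxcl2 and Cxcl3 did not pass the minimum with DMSO and were not compared there. The shift arises because the FPKM sum was 12456000 and 14815000 in the 427 libraries and 6365900 and 6238500 in the SP2bKD libraries, with 87.3% to 94.2% of it in the 10 largest loci. With equal sums, all line ratios rise by 0.97 (DMSO) and 1.25 (PMA), so that no gene is past 2-fold lower with DMSO and only Cxcl2 (-2.36) with PMA, Cxcl5 turns to 0.10 and Cxcl3 to 0.61 with PMA, Cxcl16 turns to 0.18 and 0.75, and Cx3cl1 is past 2-fold higher at 1.01 and 1.78. Upper-quartile scaling moved no comparison by more than 0.04. The median log2 ratio over all loci tested was 0.05 (DMSO) and 0.02 (PMA) in FPKM as deposited. Equal sums thus move the typical locus up by the same amounts as these genes. The SPPL2b knockdown and the single-cell clone described for it in the study's methods cannot be told apart in these comparisons.

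The GFP library was set against SP2bKD cells with DMSO, which it shares with the PMA and line comparisons. It differed from that library in transfection, sorting, and time and serum at once, which cannot be told apart. Of the 5 genes that passed, 3 were more than 2-fold higher with GFP and 0 lower (3.56% and 4.14% of 10687 loci). Cxcl1 had a log2 fold change of 4.18, Cxcl2 of 4.51 and Cxcl5 of 2.19. Cxcl2 passed through its GFP library alone, its fold has a counting interval from 7.35 to 236 (4.97 to 1220 with the shorter transcript), and with 1 added to both libraries its log2 fold change is 1.10. Cxcl16 at 0.50 and Cx3cl1 at -0.58 were within 2-fold, and Cxcl3 was below FPKM 1 in both libraries. Of the 6 expressed genes only Cxcl1 was as high in the GFP library as in SP2bKD cells with PMA (175 and 168), and the others were lower there. Fos and Fosb, immediate early genes, were at 148 and 105 in the GFP library and at 0.823 and 0.445 in SP2bKD cells with DMSO, and their part in the ligand differences was not tested.

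The difference with EICD was described by setting the GFP plus EICD library against the GFP library, both transfected and sorted. Direct and indirect effects of EICD cannot be told apart in it. Of the 6 genes that passed, 5 lay more than 2-fold higher in the EICD library and 0 lower, beside 3.58% and 0.506% of 10682 loci. The median log2 fold change of the 6 genes was 1.43, against 0.07 over all loci tested. Cxcl3, which passed through the EICD library alone, had the largest at 6.16, rank 3 of all loci, with a counting interval of the fold from 13.8 to 3150. Cxcl2 followed at 3.13, rank 15, from an estimated 53.6 to 480 fragments. With 1 added to both libraries these become 2.16 and 2.4, and the order of Cxcl3 and Cxcl2 turns. Cxcl1, at 1.53, and Cxcl5, at 1.30, started from levels already 18.1-fold and 4.55-fold above SP2bKD cells with DMSO. Among the membrane-bound ligands, Cx3cl1 was past 2-fold at 1.33 and Cxcl16, at 0.80, was not.

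The shares of Cxcl1, Cxcl2, Cxcl3 and Cxcl5 in their sum differed between libraries. Ppbp, a further CXCR2 ligand described below, is not part of this sum. The summed FPKM of Cxcl1, Cxcl2, Cxcl3 and Cxcl5 was 50.2 without and 886 with PMA in 427 cells, 18.7 without and 263 with PMA in SP2bKD cells, 217 with GFP and 620 with GFP plus EICD. Cxcl1 made up 55.9% and 51.5% of it in the DMSO libraries, 72.0% and 63.9% with PMA, and 80.6% and 81.4% in the transfected cells. Cxcl5 was thus nearly level with Cxcl1 in both DMSO libraries (a ratio of Cxcl1 to Cxcl5 of 1.29 and 1.07) and far below it after transfection (4.28 with GFP, 5.01 with EICD). Cxcl2 took its largest share, 5.44%, in 427 cells with PMA, and Cxcl3 never took more than 1.13%.

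The genes around the cluster on chromosome 5 did not all follow it. Of 18 genes with a symbol within 500 kb of the cluster, 12 reached FPKM 1, 7 of the 18 being chemokine genes. Ppbp, which encodes CXCL7, a further CXCR2 ligand known from platelets, starts 10.9 kb from the start of Cxcl5. Its FPKM was 144 without and 267 with PMA in 427 cells, 84.8 without and 123 with PMA in SP2bKD cells, 14.2 with GFP and 7.62 with GFP plus EICD. Its log2 fold change was 0.89 and 0.54 with PMA, -2.58 with GFP transfection and -0.89 with EICD, so that it lay on the lower side in both comparisons where Cxcl1, Cxcl2 and Cxcl5 were higher. In the DMSO libraries Ppbp exceeded the summed FPKM of Cxcl1, Cxcl2, Cxcl3 and Cxcl5 by 2.86-fold and 4.53-fold. With GFP plus EICD it came to 0.0123 of that sum. Mthfd2l, an enzyme of folate metabolism on the other side of Cxcl2, stayed within 2-fold in every comparison, from -0.52 to 0.44. Beyond it, the EGF receptor ligands Areg and Ereg were past 2-fold higher with PMA (4.08 and 3.45 in 427 cells, 4.17 and 2.90 in SP2bKD cells) and with GFP transfection (3.49 and 2.79), and with EICD Areg (1.37) but not Ereg (0.59) was. Ereg was below 1 in both DMSO libraries (0.469 and 0.233), and Areg in that of SP2bKD cells (0.929). Against those libraries they passed through the other library alone and could only differ upwards. Btc, a further such ligand, was past 2-fold higher with PMA (2.16 and 2.01) but not with GFP transfection (0.60) or EICD (0.19). Epgn, another, was past 2-fold higher with PMA in 427 cells (1.43), where it passed through the PMA library alone (0.488 with DMSO). It did not pass the minimum with PMA in SP2bKD cells, GFP transfection or EICD. Pf4 never exceeded an FPKM of 0.189, and Cxcl15 was listed at 0 throughout.

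**Figure D5:**
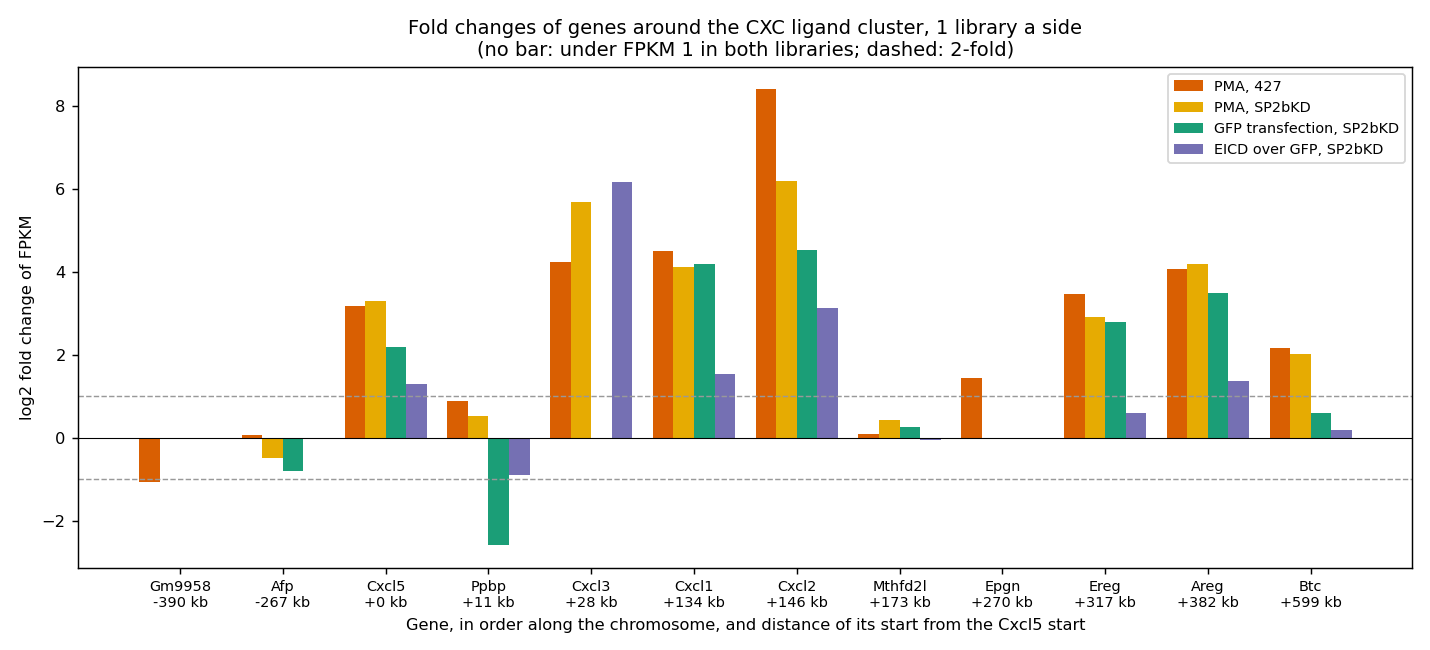
Log2 fold changes of FPKM in 4 comparisons for the 12 genes near the CXC cluster that reached FPKM 1, in chromosome order, with the distance of each start from that of Cxcl5. Ppbp, 11 kb from Cxcl5, is at -2.58 with GFP transfection and -0.89 with EICD, and Mthfd2l stays within 2-fold.

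Of 9 further CXC and XC ligand genes only Ppbp and Cxcl10 reached FPKM 1. Cxcl10, a CXCR3 ligand induced by interferon, was more than 2-fold higher with PMA in both lines (log2 3.97 and 3.66) and with EICD (1.53), at an FPKM between 0.130 and 4.78. It was at 0.296 and 0.130 with DMSO and 0.507 with GFP. Cxcl10 thus passed through the PMA or EICD library alone and could only differ upwards. The receptors of the ligands were nearly absent from these cells. Cxcr1, Cxcr3 and Cxcr5 were listed at 0 in all libraries, and Cxcr2 was between 0.0131 and 0.0509, Cxcr4 at most 0.0556, Cxcr6 at most 0.256 and Cx3cr1 at most 0.0372. Only Ackr3, the atypical receptor that binds and removes CXCL12, was above 1, at 9.37 to 21.5, and it was more than 2-fold higher with GFP transfection (1.20) and within 2-fold elsewhere. Ackr1 had no row. Adam10 (45.4 to 60.1) and Adam17 (33.5 to 37.5), which release Cxcl16 and Cx3cl1, stayed within 2-fold in all 6 comparisons, as far as mRNA shows it. Of the other 10 proteases that trim chemokines, Mmp13 was past 2-fold higher with PMA (4.16 and 2.98) and with EICD (3.0). Mmp12 was past 2-fold higher with EICD (3.65) but lower with GFP transfection (-2.56). Mmp13 was at 0.402 and 0.443 with DMSO and 0.301 with GFP. It passed through its higher library alone and could only differ upwards. Mmp12 was at 0.459 with GFP, so it could only differ upwards with EICD and downwards with GFP transfection. Dpp4, which removes the first residues of many CXC ligands, was at 0 in all libraries.

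Regulators known for these ligands were described as gene lists. NF-kappaB subunits and feedback genes had 11 of 12 genes with a row, all above the minimum. Of these 11, 6 were more than 2-fold higher with PMA in each line and 0 lower. Among all loci 3.91% were higher and 4.67% lower in 427 cells, and 3.51% and 5.69% in SP2bKD cells. The median log2 fold change of the 11 was 1.15 for 427 and 1.01 for SP2bKD cells. The 6 included Relb (2.34 and 2.59), a subunit, and Tnfaip3 (2.11 and 2.33) and Nfkbia (1.33 and 1.01), which restrain the pathway. With GFP transfection 3 were higher and with EICD 3 (Relb 1.37, Nfkbia 1.21 and Bcl3 1.05), beside 3.56% and 3.58% of all loci. The medians were 0.32 and 0.41. Between the lines 0 of 11 were past 2-fold in either treatment. Few of all loci were either, 3.11% higher and 2.76% lower with DMSO and 2.19% and 2.75% with PMA. The count of 0 therefore says little about this list.

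AP-1, C/EBP and Egr factors, with 11 of 12 genes in the files, showed another order of the comparisons. With PMA 5 of 11 were past 2-fold higher in 427 cells and 4 in SP2bKD cells, led by Fosl1 (3.97 and 4.68). Fosb passed through its PMA library alone in both lines, and Fos in SP2bKD cells. In each line 1 was lower, Cebpa (-2.46 and -2.81). Among all loci 3.91% were higher and 4.67% lower in 427 cells, and 3.51% and 5.69% in SP2bKD cells. With GFP transfection 7 of 11 were higher (3.56% of all loci), with a median of 1.79, among them Fosb (7.85), Fos (7.48) and Egr1 (4.14). Fos and Fosb passed through the GFP library alone. With EICD 1 of 11 was higher (3.58% of all loci), Atf3 at 1.87, with a median of 0.74. Between the lines 0 were higher in SP2bKD cells, 3 of 10 lower with DMSO and 2 of 11 with PMA. Of all loci, 3.11% were higher and 2.76% lower with DMSO, and 2.19% and 2.75% with PMA. Counts of 0 or 1 in a list of this size cannot be told apart from such shares.

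The list of factors that bind and destroy or stabilise chemokine mRNA had 9 genes in the files. Of these, 2 were past 2-fold higher with PMA in each line and 2 with EICD. Among all loci 3.91% (427) and 3.51% (SP2bKD) were higher with PMA and 3.58% with EICD. In each case the genes were Arid5a (2.63, 2.49 and 1.51), which stabilises mRNA, and Zc3h12a (1.91, 1.52 and 1.04), an RNase also called Regnase-1. With GFP transfection 3 were higher (3.56% of all loci), Zfp36 (1.73), Zc3h12a (1.36) and Zfp36l1 (1.28), all of which act in mRNA decay. The medians of the list lay between -0.12 and 0.36.

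The shorter coding transcript of Cxcl2 (1109 bases) was left out here. The ATTTA core of AU-rich elements was counted after the stop codon of the longest coding transcript of each gene. It occurred 7 times in Cxcl1, 11 in Cxcl2, 5 in Cxcl3 and 5 in Cxcl5, or 11.8, 7.36, 7.75 and 4.50 times per kilobase. Cxcl12, Cxcl14, Cxcl16 and Cx3cl1 had 4, 0, 2 and 1, at most 1.41 per kilobase. Over all 20957 genes, 64.8% hold ATTTA at least once and 35.3% hold it 3 times or more. The longer form ATTTATTTA occurred 2 times in Cxcl1 and 4 times in Cxcl2 and in none of the other 6 genes, and 6.03% of genes hold it at least once.

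Between the coding transcripts of Cxcl1, Cxcl2, Cxcl3 and Cxcl5, 61.9% to 71.2% of aligned bases were identical. Only Cxcl2 and Cxcl3 shared any stretch as long as a read of 100 bases, at 11 positions, so that few reads could match both genes of this pair without a mismatch, and none both genes of another pair.

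The genes whose levels over the 6 libraries were most like those of each ligand were found by the root mean square distance of centred log2(FPKM + 0.1) among 10432 loci. The 6 points share lines and treatments, so this is a description. Areg, an EGF receptor ligand, was nearest to Cxcl1 (0.44), followed by Hcar2 (0.53) and Ier3 (0.69), where the median locus was at 2.22. Cxcl2 was nearest to Cxcl1 (1.11), Ccl20 (1.12) and Areg (1.19), and Cxcl3 to Mmp13 (0.80), Nos2 (0.92) and Nppb (0.99), all at wider distances. Cxcl5 had close neighbours in the cytokines Il1a (0.14) and Lif (0.15) and in Cxcl10 (0.31). Cxcl16 was nearest to Zmynd15 (0.12), the gene it overlaps, then Gch1 (0.14) and Mast4 (0.20). Cx3cl1 was nearest to the growth factors Csf1 (0.23) and Pdgfb (0.24) and to Slco2a1 (0.26), a prostaglandin transporter.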

How the data were processed

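Poly(A) RNA was sequenced as 100-base read pairs. Per the labels and the submitters' processing notes, the authors used TopHat2 2.1.1, Cufflinks 2.1.1 and Cuffdiff 2.1.1 on GRCm38 (STAR 2.4.0b is also listed, with no role given), and deposited FPKM values for loci with newly assembled isoforms. FPKM of a gene therefore depends on the assembled model.

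Groups came from the labels. The genes and lists were chosen with earlier results of these data known. All members and list genes past 2-fold with PMA or EICD were eligible to be named, up to 4 a list, with the cluster neighbours and the 3 nearest loci by level; the remaining named list genes were added after their values were seen. With Python 3.11.15, pandas 2.3.3, NumPy 2.4.6 and SciPy 1.17.1, log2 fold changes were computed with 0.01 added to both libraries (for EICD to the EICD library alone). Alternatives changed this amount, the minimum and the scaling. Depth was estimated from the steps of low FPKM values, and fragments per gene from the longest coding GENCODE transcript with an assumed fragment of 200 bases. They are rough, and intervals cover counting error only. Scripts were tested on simulated data. Sequences were aligned with Biopython 1.88.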

Additional observations from a re-analysis of the deposited data

How the results depend on the processing

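Counts of genes past 2-fold depended on the settings in the line comparisons. With DMSO, 2 genes were more than 2-fold lower in SP2bKD cells as reported, 6 without a minimum FPKM, 5 with a minimum of 0.1 and 0 with equal FPKM sums, where 1 was higher. With PMA, 3 were lower as reported, 5 without a minimum and 1 with equal sums, where 1 was higher. The genes added by a lower minimum were below FPKM 1 in both libraries compared. Among them was Cxcl14, at 0.0205 in 427 cells and 0 in SP2bKD cells with DMSO, about 1 fragment or none. No share over all loci is given for these other settings, so the counts describe the settings only. Equal sums turned Cxcl5 with PMA to 0.10, and 1 added to every FPKM turned the difference of PMA effects of Cxcl3 to 0.27. Of the values of single genes, 6 changed sign. Besides these 2, they were Cxcl3 with PMA and Cxcl16 in both treatments with equal sums, and Cx3cl1 with DMSO, from 0.04 to about 0 with the median of all loci set to 0. With 1 added, the log2 fold changes of the low genes shrank most, Cxcl3 with EICD from 6.16 to 2.16 and Cxcl2 with PMA in SP2bKD cells from 6.18 to 2.25. Of the counts, 91 stayed within 1.5 times and 7 did not. The counts with PMA, GFP transfection and EICD stayed within 1.5 times under all alternatives run. Depth limits the folds of Cxcl2 and Cxcl3, whose lower libraries held few fragments, and for Cxcl12 and Cxcl14, below FPKM 1 throughout, no fold change was computed. No paired analysis was possible because each condition has 1 library and the labels carry no replicate numbers.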
